A study of Mus musculus with 2 samples.

Results

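The genes described here are 10 members of the NF-κB system of mouse immune cells: the inhibitors Nfkbia, Nfkbid, Nfkbiz and Bcl3, the ubiquitin regulators Tnfaip3 and Birc3, the subunits Nfkb1 and Relb, and the widely used target genes Icam1 and Cd83. They were chosen by symbol, and all 10 of 10 were found among the 31053 features of both libraries. The study sorted innate lymphoid cells (ILCs), tissue lymphocytes without rearranged antigen receptors, from the lamina propria of the small intestine (SI LP in the labels) and sequenced them as single cells. The Zfp36_KO library came from 4 pooled Zfp36-/- mice, and the WT library from 4 pooled wild-type mice. All mice were C57BL/6, and live CD45+ Lin- CD3- TCRβ- cells positive for CD90.2 and CD127 were taken from both. Age, sex and the deleted stretch of Zfp36 are not given in the sources used here, and no treatment is named for these mice. Each genotype is 1 library, so no test between genotypes was possible, and all intervals below cover counting error only, not the spread between mice.

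NF-κB is a family of dimeric transcription factors that inhibitor (IκB) proteins hold in the cytoplasm until a receptor signal has the inhibitor degraded. The freed dimers switch on inflammatory and survival genes, and also Nfkbia and Tnfaip3, whose products end the signal. In gut ILCs the pathway acts downstream of IL-1, IL-18, IL-33 and TNF family receptors. Zfp36 encodes tristetraprolin (TTP), a protein that binds AU-rich stretches of 3′ UTRs and promotes decay of the transcript, and it is itself an inducible gene.

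The sequences that bear on these roles are the AU-rich sites that TTP can bind and the κB motifs through which NF-κB acts on its own inhibitors. TATTTAT, the core of the TTP-binding sequence, was searched on the transcript strand of the longest annotated 3′ UTR. It was present in 4 of 10 members, against 27.58% of 20993 genes. Nfkbia had 2 copies in a UTR of 512 bases, Tnfaip3 2 in 1821, Birc3 3 in 1525 and Icam1 2 in 871, and Nfkbid, Nfkbiz, Nfkb1, Relb, Bcl3 and Cd83 had none. A window each of the Nfkbia, Birc3 and Icam1 UTRs is shown from GENCODE M21 (mm10), in DNA letters with the motif in capitals; in Birc3 the capitals hold 2 overlapping copies.
Nfkbia: ccacgtttTATTTATtgtgcttttgatt
Birc3: gagaaattTATTTATTTATttaaaagat
Icam1: tcttgatgTATTTATtaatttagagttt

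Promoters of 300 bases, from 250 before to 50 after the start, were taken from RefSeq (GRCm38.p6) and searched on both strands for the κB consensus of 10 bases, with overlapping matches counted. A table entry was found for 6 members, namely Nfkbia, Nfkbid, Tnfaip3, Bcl3, Birc3 and Icam1. The motif was in 4 of the 9 promoters of these genes, against 4.505% of 32851 promoters of the same length, and each of the 4 belonged to a different gene; Icam1 and Birc3 had no match in this window. The 3 promoters shown belong to inhibitors or regulators with matches upstream of the start, 5′ to 3′ on the strand of the gene, with matches in capitals. The first base of the match lay at -29 in Nfkbia (chr12:55492598-55492897, minus strand), at -226 and -181 in Nfkbid (chr7:30422156-30422455, plus strand) and at -125 and -12 in Tnfaip3 (chr10:19015361-19015660, minus strand). A match is a description of the letters, not a measured binding site.
Nfkbia: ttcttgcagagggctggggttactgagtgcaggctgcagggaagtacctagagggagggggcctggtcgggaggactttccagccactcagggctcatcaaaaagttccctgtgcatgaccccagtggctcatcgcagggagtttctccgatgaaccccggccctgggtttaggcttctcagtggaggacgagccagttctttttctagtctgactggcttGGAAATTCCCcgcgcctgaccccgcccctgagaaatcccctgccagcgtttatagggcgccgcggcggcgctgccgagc
Nfkbid: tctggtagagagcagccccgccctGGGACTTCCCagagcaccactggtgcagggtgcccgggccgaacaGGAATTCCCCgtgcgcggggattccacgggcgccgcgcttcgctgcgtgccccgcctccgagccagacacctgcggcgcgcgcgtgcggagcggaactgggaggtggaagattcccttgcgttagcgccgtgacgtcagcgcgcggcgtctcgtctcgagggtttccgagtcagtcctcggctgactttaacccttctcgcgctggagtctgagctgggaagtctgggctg
Tnfaip3: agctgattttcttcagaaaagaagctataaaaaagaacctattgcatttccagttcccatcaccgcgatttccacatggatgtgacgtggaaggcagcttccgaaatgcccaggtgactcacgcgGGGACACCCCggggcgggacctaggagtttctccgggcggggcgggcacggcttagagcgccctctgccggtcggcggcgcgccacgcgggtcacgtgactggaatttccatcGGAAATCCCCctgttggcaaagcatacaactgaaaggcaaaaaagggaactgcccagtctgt

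The Zfp36_KO library held 3522 barcodes and 27733804 unique molecular identifiers (UMIs), and the WT library 3593 barcodes and 24721524 UMIs. After filtering, 3334 knockout and 3360 WT cells were kept, with medians of 5336.5 and 5292.5 UMIs, and 2 barcodes occurred in both libraries. Cells were placed in 6 classes by UMIs of marker genes that include no member. The classes held 865 knockout and 479 WT ILC2, 219 and 290 CCR6+ ILC3, 267 and 264 NCR+ ILC3, 150 and 136 ILC1/NK, 18 and 1023 T cells, and 406 and 97 myeloid cells. Among marker genes that the gates did not use, ILC3 genes summed to 8602 CPM in knockout and 8942 CPM in WT CCR6+ ILC3, and ILC2 genes to 2161 and 2725 CPM in ILC2. The ILC2 label is uncertain in the knockout library, where the ILC1/NK list summed to 2584 CPM in ILC2, against 475 CPM in WT. Whether other cells entered the class or ILC2 held these transcripts themselves was not tested. No class took 1409 knockout and 1071 WT cells. Among these were 354 knockout and 174 WT cells of the ILC3 gate with UMIs of neither or both of Ccr6 and Ncr1. T and myeloid cells lie outside the sort described in the labels. Zfp36 itself was lower in the knockout library in 5 classes, with log2 ratios of -1.20 in ILC2, -1.88 in CCR6+ ILC3, -1.99 in NCR+ ILC3, -1.25 in ILC1/NK and -0.60 in myeloid cells, and stood at -0.45 (-1.09 to 0.13) in T cells. Tags of its 3′ end remained in all classes. Cells with Y-linked UMIs and no Xist made up 13.4% of the knockout library and 0 cells of the WT library, so the pools differed in sex-linked transcripts.

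Levels are in CPM, the UMIs of a gene scaled by all UMIs of the class, and a difference is the log2 ratio of the knockout over the WT level with its exact 95% interval. The words higher and lower are kept for genes with 50 or more UMIs over both libraries, a difference of 1.5-fold or more and an interval that excludes 0. The median ratio of all genes lay above 0 in every class, between 0.14 in NCR+ ILC3 and 0.24 in myeloid cells, so differences relative to that median are given as well. Because tags come from the 3′ end, levels are compared between libraries and classes and not between genes.

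The inhibitor genes Nfkbia and Nfkbid and the targets Icam1 and Cd83 were lower in knockout NCR+ ILC3 and CCR6+ ILC3, and Nfkbid, Icam1 and Cd83 were also lower in knockout ILC2. The Cd83 intervals of ILC2 overlapped those of ILC1/NK cells, which are read as background for Cd83 below. Tnfaip3, which encodes the deubiquitinating enzyme A20, was within 1.5-fold in these classes. The subunit gene Nfkb1 was higher in knockout CCR6+ ILC3 and ILC1/NK cells. In ILC2, 3 of 10 members were lower and 0 higher, beside 3.15% and 14% of 8696 genes. In CCR6+ ILC3, 4 of 9 members were lower and 1 higher, beside 4.35% and 15.8% of 5999 genes, and in NCR+ ILC3 4 of 9 were lower and 0 higher, beside 3.61% and 13.7% of 6786 genes. In ILC1/NK cells 0 of 8 were lower and 1 higher, beside 3.84% and 15.1% of 4344 genes. The median ratio of the members was -0.31 in ILC2, -0.30 in CCR6+ ILC3, -0.35 in NCR+ ILC3 and 0.05 in ILC1/NK cells, against 0.15, 0.17, 0.14 and 0.16 for all genes. Bcl3 fell below 50 UMIs in the 3 smaller ILC classes, and Cd83 in ILC1/NK cells.

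**Figure D1:**
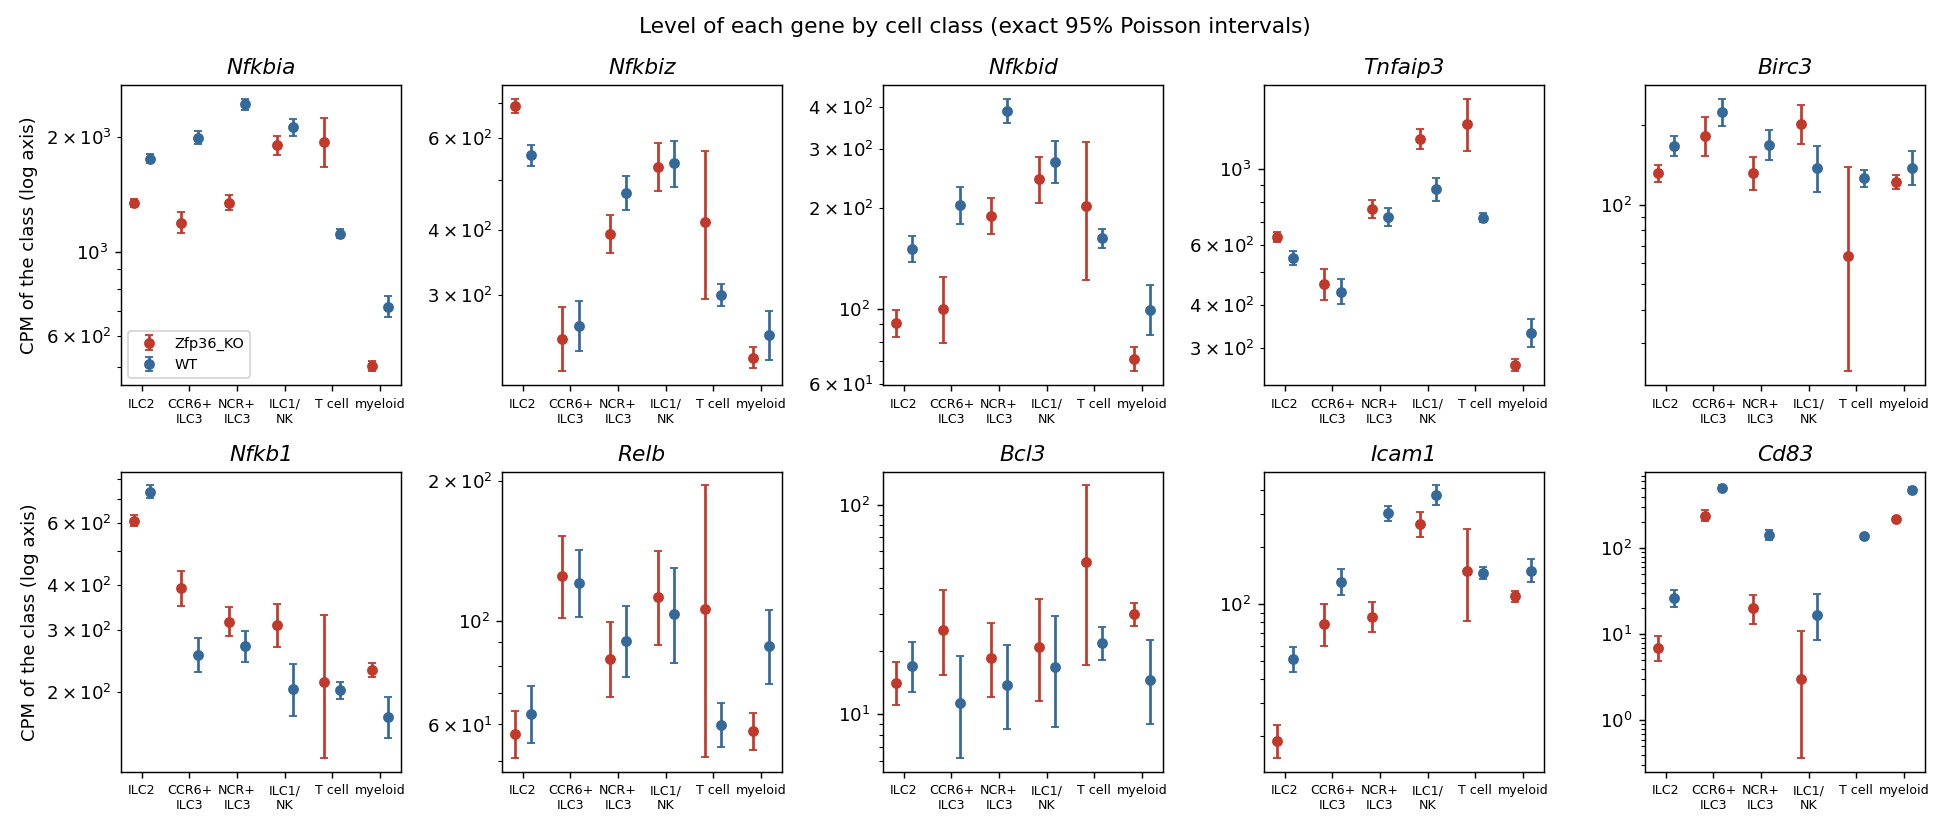
Level of each of the 10 genes (CPM, log axis, own scale in each panel) by cell class in the Zfp36_KO (red) and WT (blue) library; bars are exact 95% Poisson intervals of the summed UMIs. Nfkbia, Nfkbid, Icam1 and Cd83 are lower in knockout CCR6+ and NCR+ ILC3, and Cd83 in knockout T cells, at 0 UMIs in 18 cells, is not drawn.

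Nfkbia encodes IκBα, the main inhibitor that holds NF-κB in the cytoplasm, and is itself an NF-κB target (mm10 chromosome 12, 55489410 to 55492647, minus strand). In NCR+ ILC3 it had 1879 UMIs and 1345 CPM in knockout, against 3528 UMIs and 2444 CPM in WT. In CCR6+ ILC3 it had 1193 CPM in knockout and 1995 CPM in WT. Knockout cells were thus lower in both ILC3 classes, with log2 ratios of -0.86 (-0.94 to -0.78) in NCR+ and -0.74 (-0.85 to -0.63) in CCR6+ cells, or -1.01 and -0.91 relative to all genes. The other ILC classes lay closer together, with 1341 CPM in knockout and 1755 CPM in WT ILC2 (-0.39, -0.44 to -0.34) and 1904 CPM in knockout and 2121 CPM in WT ILC1/NK cells (-0.16, -0.26 to -0.05). The order of the classes differed: in the WT library NCR+ ILC3 stood first, above ILC1/NK cells with intervals apart, whereas in the knockout library NCR+ ILC3 stood below ILC1/NK cells and its interval overlapped that of ILC2.

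The 3 remaining inhibitor genes encode nuclear or atypical IκB proteins, which act on NF-κB bound to DNA. Nfkbid (IκBNS) had 189.6 CPM in knockout and 391 CPM in WT NCR+ ILC3, a log2 ratio of -1.04 (-1.26 to -0.83). In CCR6+ ILC3 it had 99.8 CPM in knockout and 204 CPM in WT (-1.03, -1.41 to -0.66), and in ILC2 90.9 CPM in knockout and 151 CPM in WT (-0.73, -0.92 to -0.55). It was lower in all 3 classes, whereas in ILC1/NK cells the 244 CPM in knockout and 275 CPM in WT could not be told apart by counting error (-0.17, -0.48 to 0.14). Nfkbiz (IκBζ), an inducible co-activator of secondary NF-κB targets, passed 1.5-fold in none of the 6 classes. It had 692 CPM in knockout and 557 CPM in WT ILC2 (0.31, 0.23 to 0.40), and 394 CPM in knockout and 472 CPM in WT NCR+ ILC3 (-0.26, -0.43 to -0.10). ILC2 held the first place for Nfkbiz in both libraries, apart from the next class in knockout and overlapping with ILC1/NK cells in WT. Bcl3, a partner of p50 and p52 homodimers, was scarce, with 14.1 CPM in knockout and 17.03 CPM in WT ILC2 (-0.27, -0.80 to 0.26).

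Tnfaip3 and Birc3 act on the ubiquitin chains that carry the receptor signal: A20, encoded by Tnfaip3, removes or edits them, and cIAP2, encoded by Birc3, builds them. Tnfaip3 had 764 CPM in knockout and 723 CPM in WT NCR+ ILC3 (0.08, -0.04 to 0.20), and 460.1 CPM in knockout and 438 CPM in WT CCR6+ ILC3 (0.07, -0.12 to 0.27). Relative to all genes both values turned to just below 0, at -0.06 and -0.10. In the ILC3 cells in which Nfkbia was lower, the other classical feedback gene therefore lay within its counting error of equal levels. Tnfaip3 had 1225 CPM in knockout and 873 CPM in WT ILC1/NK cells (0.49, 0.34 to 0.64), under the 1.5-fold limit, and 634 CPM in knockout and 551 CPM in WT ILC2 (0.20, 0.12 to 0.29). Birc3 was higher or lower in none of the 6 classes. Its ratios were -0.35 in ILC2, -0.30 in CCR6+ ILC3 and -0.35 in NCR+ ILC3, and 0.55 in ILC1/NK cells, where it had 134 UMIs in knockout and 98 UMIs in WT.

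Of the subunits, Nfkb1 encodes p105, the precursor of p50 that also acts as an inhibitor, and Relb encodes the RelB partner of the noncanonical pathway. Nfkb1 had 393 CPM in knockout and 255 CPM in WT CCR6+ ILC3, a log2 ratio of 0.63 (0.40 to 0.86). In ILC1/NK cells it had 309 CPM in knockout and 203 CPM in WT (0.60, 0.29 to 0.92). Nfkb1 was thus higher in knockout in these 2 classes, by 1.54-fold and 1.52-fold, close to the limit, and relative to all genes the ratios were 0.46 and 0.44 and no longer passed it. In ILC2, which held the highest Nfkb1 level in both libraries with intervals apart from the next class, the levels were 608 CPM in knockout and 735 CPM in WT (-0.27, -0.35 to -0.20). In NCR+ ILC3 they were 316 CPM in knockout and 269 CPM in WT (0.23, 0.03 to 0.43). Relb differed by less than its counting error in all 4 ILC classes, with ratios between -0.14 in ILC2 and 0.12 in ILC1/NK cells, and those above 0 turned below 0 relative to all genes. Its highest levels were in CCR6+ ILC3, at 125 CPM in knockout and 121 CPM in WT, overlapping with ILC1/NK cells in both libraries.

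**Figure D2:**
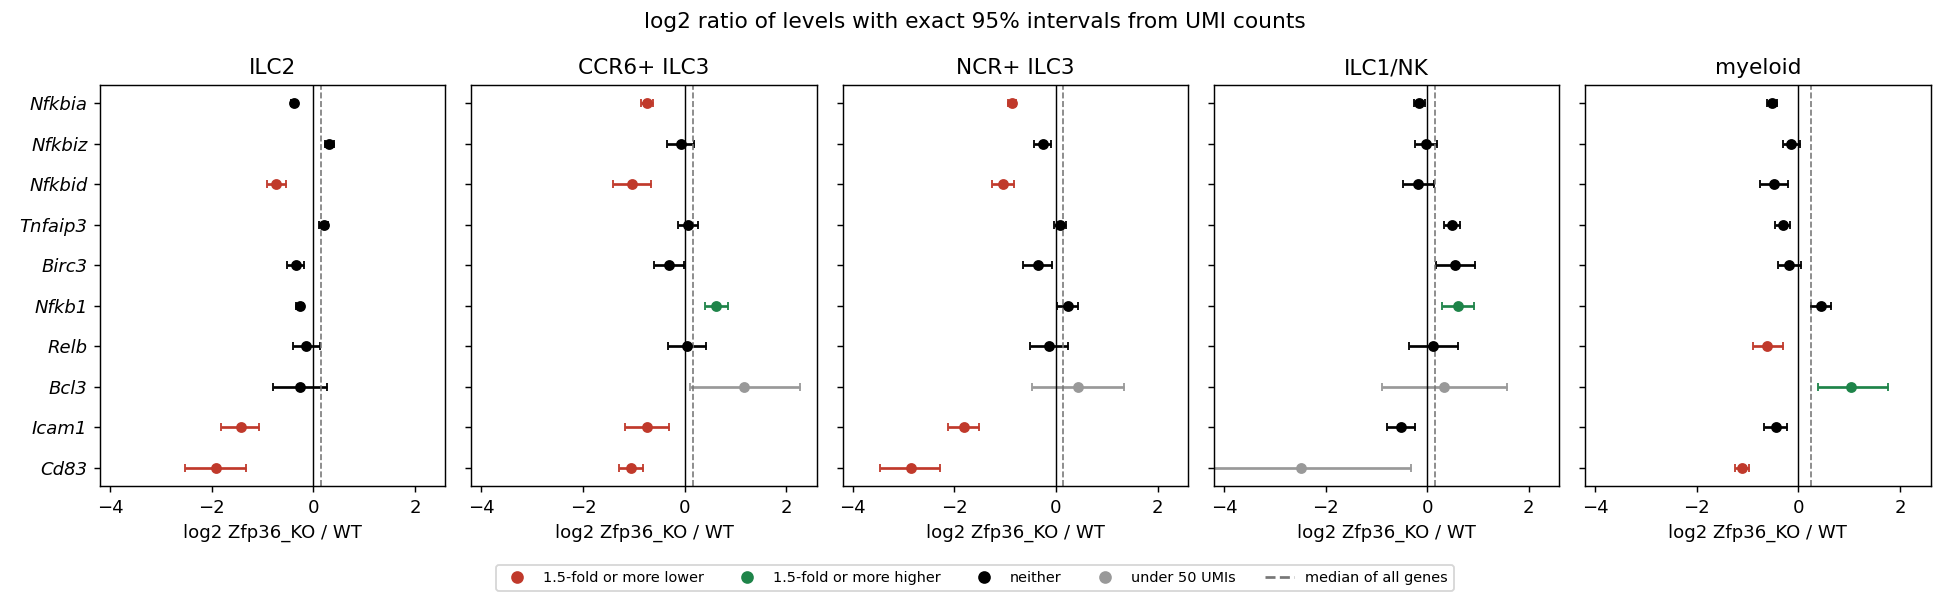
log2 ratio of the Zfp36_KO over the WT level (x axis) of each gene in 5 classes, with exact 95% intervals from UMI counts; the dashed line is the median of all genes, and the axis ends inside the interval of Cd83 in ILC1/NK cells. Icam1 and Cd83 lie at the low end in the ILC2 and NCR+ ILC3 panels, Cd83 and Nfkbid in the CCR6+ ILC3 panel, and Nfkb1 on the high side in CCR6+ ILC3 and ILC1/NK cells. T cells are left out because the knockout class held 18 cells.

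The targets Icam1 and Cd83 had the ratios furthest below 0 in ILC2 and NCR+ ILC3, but in CCR6+ ILC3 Nfkbid and Nfkbia lay at or below Icam1. Icam1 encodes an adhesion protein that binds the integrin LFA-1 and is induced by NF-κB in many cell types. It had 120 UMIs and 85.9 CPM in knockout NCR+ ILC3, against 435 UMIs and 301 CPM in WT, which was 3.51-fold lower (-1.81, -2.11 to -1.52). In ILC2 it had 18.9 CPM in knockout and 51.1 CPM in WT (-1.43, -1.81 to -1.06), and in CCR6+ ILC3 78.4 CPM in knockout and 131 CPM in WT (-0.74, -1.18 to -0.31). The CCR6+ value fell under 1.5-fold, at -0.57, without the 5% of cells richest in the members. ILC1/NK cells held the highest Icam1 level, with 263 CPM in knockout and 376 CPM in WT (-0.51, -0.80 to -0.23), a difference under 1.5-fold. In the knockout library the NCR+ ILC3 interval overlapped that of CCR6+ ILC3, whereas in the WT library NCR+ ILC3 came next after ILC1/NK cells.

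Cd83 encodes a surface protein of activated dendritic cells and lymphocytes. Its level was highest in CCR6+ ILC3 among the ILC classes of both libraries, with 240.1 CPM in knockout and 499 CPM in WT, 2.08-fold lower (-1.05, -1.30 to -0.82). In NCR+ ILC3 it had 28 UMIs and 20.04 CPM in knockout and 208 UMIs and 144 CPM in WT, 7.19-fold lower (-2.85, -3.47 to -2.27). In ILC2 it had 36 UMIs in knockout and 83 UMIs in WT, or 6.95 and 26.2 CPM (-1.91, -2.52 to -1.33). Cd83 was therefore lower in each of the 3 classes, on few knockout UMIs outside CCR6+ ILC3, and in knockout NCR+ ILC3 a single cell held 35.7% of them. ILC1/NK cells, with 2 UMIs in knockout and 12 UMIs in WT, gave the lowest level and are read here as background. Their levels were 3.01 CPM in knockout and 16.8 CPM in WT, with intervals that overlapped those of ILC2 in both libraries. The lower Cd83 of knockout ILC2 therefore cannot be told apart from this background.

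Some other transcripts moved beside these members. The summed level of 9 immediate-early genes was 12367 CPM in knockout and 16061 CPM in WT NCR+ ILC3, 8808 and 11052 CPM in ILC2, and 11753 and 14632 CPM in ILC1/NK cells. In CCR6+ ILC3 it was 18147 CPM in knockout and 18630 CPM in WT, so there the lower Nfkbia and Nfkbid stood beside nearly equal sums. Junb, an AP-1 gene, had ratios of -0.68 in ILC2, -0.61 in CCR6+ ILC3 and -0.60 in NCR+ ILC3, while Fos stood at 0.35, 0.42 and -0.06. Heat-shock genes, which rise with stress during cell isolation, summed to 1056 CPM in knockout and 1238 CPM in WT NCR+ ILC3, 1594 and 1711 CPM in CCR6+ ILC3, 1178 and 1432 CPM in ILC2, and 912 and 1682 CPM in ILC1/NK cells. Markers of ILC1 and NK cells summed to 809 CPM in knockout and 1574 CPM in WT NCR+ ILC3, and all 7 genes of this list were detected in both libraries there and in ILC2. T cell markers were below WT in all 4 ILC classes, with sums of 548 CPM in knockout and 884 CPM in WT NCR+ ILC3, 360.2 and 541 CPM in CCR6+ ILC3, 628 and 1110.1 CPM in ILC2, and 729 and 1033 CPM in ILC1/NK cells. In CCR6+ ILC3 markers of B and plasma cells summed to 511 CPM in knockout and 775 CPM in WT, with Cd79a and Ms4a1 at 0 in both, and myeloid markers to 1879 and 2553 CPM. In knockout ILC1/NK cells the ILC3 cytokine gene Il22 had 429 CPM, against 16.8 CPM in WT, and markers of ILC1 and NK cells summed to 6109 and 8921 CPM. The part of these genes in the results was not tested.

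The same 4 genes were also read over the whole ILC3 gate, including cells with UMIs of neither or both of Ccr6 and Ncr1, a check added after the data were seen. Over these 840 knockout and 728 WT cells Nfkbia stood at -0.75 (-0.80 to -0.69), Nfkbid at -1.07, Icam1 at -1.42 and Cd83 at -1.51. Tnfaip3 had 593 CPM in knockout and 594 CPM in WT cells, a ratio of -0.0035 (-0.09 to 0.09). Nfkb1 stood at 0.35 (0.22 to 0.48), below 1.5-fold.

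Differences in level can come from more cells with a transcript or from more transcript per cell, so shares were read with each cell thinned to 2000 UMIs. An Icam1 UMI was found in 10.6% (7.14 to 14.9) of knockout and 24.7% (19.6 to 30.4) of WT NCR+ ILC3. A Cd83 UMI was found in 3.77% (1.82 to 6.83) of knockout and 11.8% (8.15 to 16.3) of WT NCR+ ILC3, and in 22.6% (17.2 to 28.9) of knockout and 37.0% (31.4 to 42.9) of WT CCR6+ ILC3. These intervals did not overlap. For Icam1 in CCR6+ ILC3 they did, at 12.7% (8.56 to 17.99) of knockout and 19.4% (14.98 to 24.4) of WT cells. The shares without thinning, 25.1% in knockout and 40.9% in WT NCR+ ILC3 for Icam1, had the same order. In ILC1/NK cells, taken as background for Cd83, 0 of 140 knockout cells had a UMI, which allows a share of up to 2.14% at 3 counts and of up to 2.601% by the exact interval, against 1.504% (0.183 to 5.33) of 133 WT cells. The Cd83 shares of ILC2, 1.05% in knockout and 4.03% in WT, both lie within that background. For Icam1 and the inhibitors no class here is known to lack the transcript, and the lowest Icam1 share, in ILC2, was 2.81% in knockout and 5.93% in WT. The median depth before thinning was 5129 UMIs in knockout and 5348.5 UMIs in WT NCR+ ILC3, 3337 and 4157 UMIs in CCR6+ ILC3, and 4363.5 and 5158.5 UMIs in ILC1/NK cells.

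**Figure D3:**
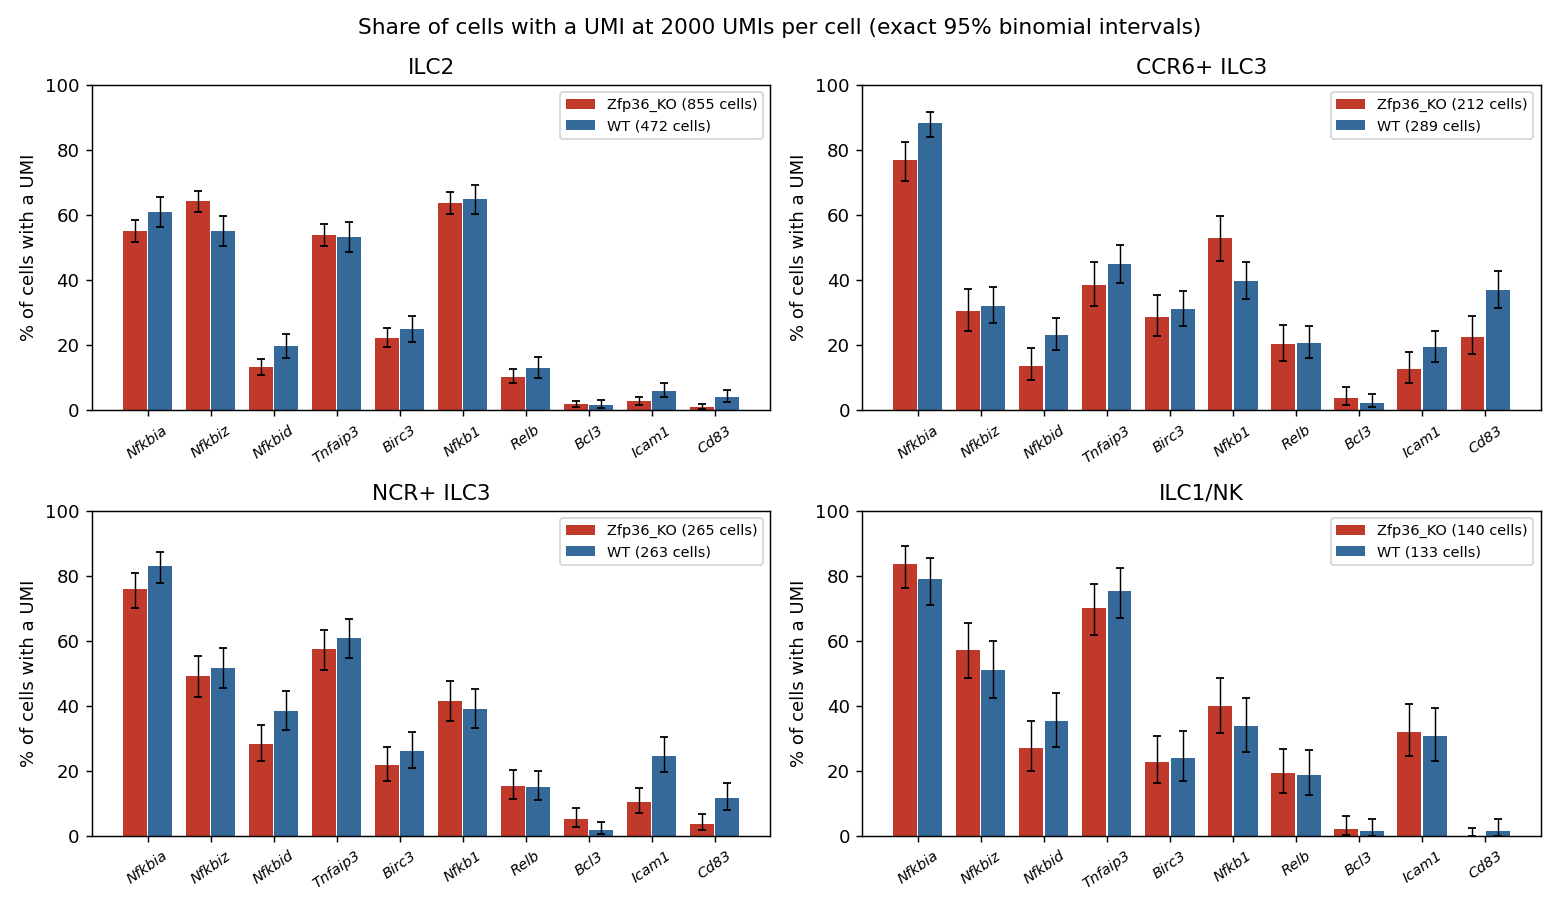
Percentage of cells with at least 1 UMI of each gene when every cell is thinned to 2000 UMIs, in Zfp36_KO (red) and WT (blue) cells of 4 ILC classes; bars carry exact 95% binomial (Clopper-Pearson) intervals. The intervals of Icam1 and Cd83 in NCR+ ILC3 and of Cd83, Nfkbia and Nfkb1 in CCR6+ ILC3 do not overlap. Those of Nfkbiz, Nfkbid and Cd83 in ILC2 are also apart, whereas those of Tnfaip3 and Relb overlap in every panel.

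Nfkbia behaved differently, because most cells had it in both libraries. At equal depth it was found in 75.8% (70.2 to 80.9) of knockout and 82.9% (77.8 to 87.2) of WT NCR+ ILC3, with overlapping intervals. The number of UMIs per cell differed more: 19.6% of 265 knockout and 46.0% of 263 WT NCR+ ILC3 had 5 or more Nfkbia UMIs of 2000. In CCR6+ ILC3 13.2% of 212 knockout and 35.3% of 289 WT cells reached 5 UMIs. There 76.9% (70.6 to 82.4) of knockout and 88.2% (83.9 to 91.7) of WT cells had any, with intervals apart. Cells with many Nfkbia UMIs thus made up a smaller share of knockout cells in both classes. For Nfkbid, 28.3% (23.0 to 34.1) of knockout and 38.4% (32.5 to 44.6) of WT NCR+ ILC3 had a UMI, and 13.7% (9.36 to 19.1) of knockout and 23.2% (18.4 to 28.5) of WT CCR6+ ILC3, with intervals that overlapped in both.

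**Figure D4:**
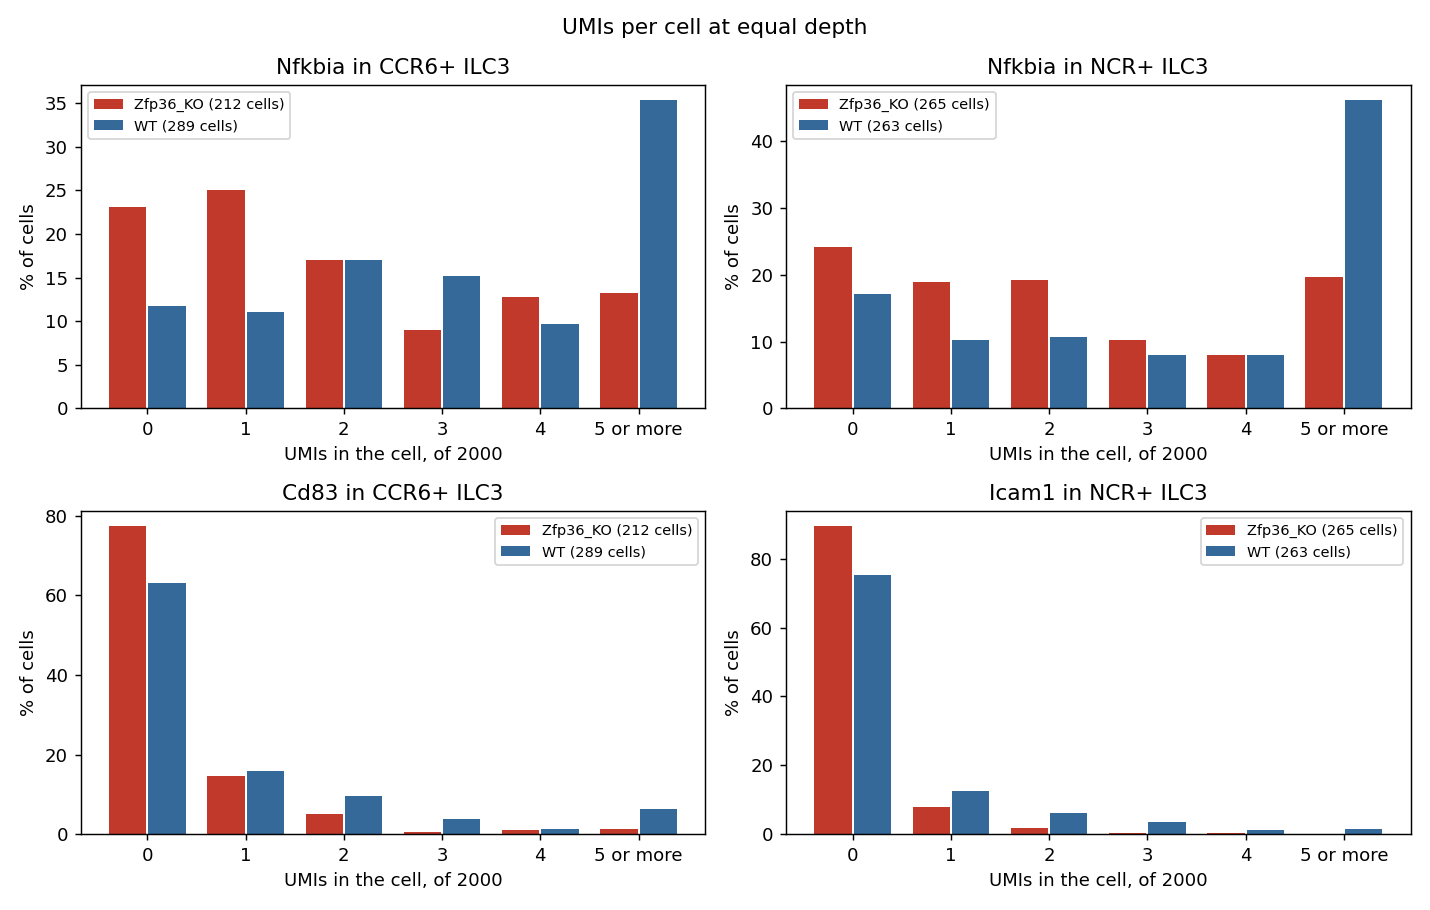
Distribution of UMIs per cell at 2000 UMIs per cell for Nfkbia in CCR6+ and NCR+ ILC3, Cd83 in CCR6+ ILC3 and Icam1 in NCR+ ILC3, as the percentage of Zfp36_KO (red) and WT (blue) cells with 0 to 4 and with 5 or more UMIs. Cells with 5 or more Nfkbia UMIs are 19.6% of knockout and 46.0% of WT NCR+ ILC3.

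Because of the sex-linked transcripts, knockout cells with a Y-linked UMI and no Xist were set beside those with Xist and no Y-linked UMI. NCR+ ILC3 of the first kind (39 cells) had 879 CPM of Nfkbia and those of the second kind (215 cells) 1435 CPM, against 2444 CPM in WT. Nfkbid had 109 and 211 CPM in them, against 391 CPM in WT, and Icam1 52.0 and 92.2 CPM, against 301 CPM in WT. Both kinds of knockout cells thus lay below WT, with intervals of the ratio to WT that excluded 0. Tnfaip3 did not follow this: it had 421 CPM in cells with Y-linked UMIs and 830 CPM in cells with Xist, on either side of the 723 CPM in WT, so the near-equal level of the whole class is a mean over both kinds. In ILC2, Nfkbia had 1837 CPM in 134 cells with Y-linked UMIs and 1241 CPM in 687 cells with Xist, against 1755 CPM in WT, while Nfkbid, at 48.1 and 101 CPM, against 151 CPM in WT, and Icam1, at 11.4 and 20.5 CPM, against 51.1 CPM in WT, were below WT in both. In CCR6+ ILC3 Nfkb1 had 432 and 396 CPM, against 255 CPM in WT, and Nfkbia 1247 and 1227 CPM, against 1995 CPM in WT. Icam1 there had 88.4 CPM in 28 cells with Y-linked UMIs, with an interval that included the WT level.

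**Figure D5:**
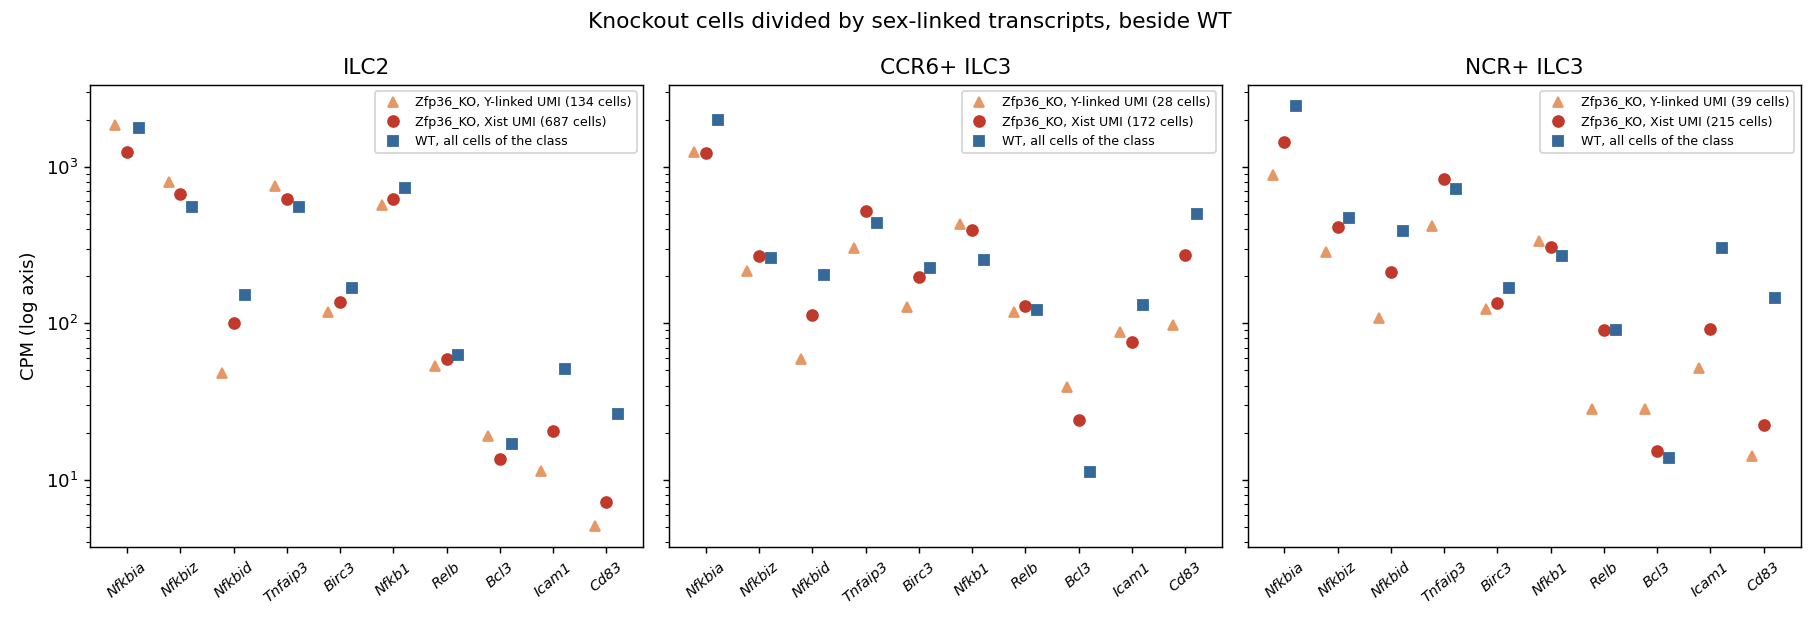
Level (CPM, log axis) of each gene in Zfp36_KO cells with Y-linked UMIs and no Xist (triangles), in Zfp36_KO cells with Xist and no Y-linked UMIs (circles) and in all WT cells of the class (squares), without error bars. Both knockout subsets lie below WT for Nfkbid, Icam1 and Cd83 in the 3 classes, and for Nfkbia in the ILC3 classes but not in ILC2, where the Y-linked subset stands at 1837 CPM and WT at 1755 CPM.

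In myeloid cells, which the sort should have removed, 2 of 10 members were lower and 1 higher in knockout, beside 4.64% and 17.2% of 9394 genes. The lower members were 5 when centred on the median of all genes, thinned or without cells of high depth. The median of the members was -0.38, against 0.24 for all genes. Cd83 had 221 CPM in knockout and 477 CPM in WT (-1.11, -1.24 to -0.98), Relb 58.0 CPM in knockout and 88.5 CPM in WT (-0.61, -0.90 to -0.31), and Bcl3 30.0 CPM in knockout and 14.6 CPM in WT (1.04, 0.38 to 1.77), the last on 20 WT UMIs. A single WT cell held 24.8% of the 121 WT Relb UMIs, and a single WT cell 30.0% of those of Bcl3. The class was made up differently in the libraries. Markers of B and plasma cells summed to 26200 CPM in knockout and 67001 CPM in WT, the neutrophil and monocyte gene S100a9 had 151 UMIs in knockout and 0 UMIs in WT, and the median depth was 19220.5 UMIs in knockout and 10661 UMIs in WT. In cells with C1q transcripts, which mark gut macrophages (140 knockout and 44 WT cells, a division made after the data were seen), Cd83 stood at -1.07 and in the rest (266 and 53 cells) at -1.12. Cd83 was thus lower in both parts. Relb stood at 0.33 in C1q-positive cells, with an interval including 0, and at -0.94 in the rest, and Nfkbia at 0.05 and -0.94. Nfkb1 had 267 CPM in knockout and 107 CPM in WT C1q-positive cells (1.31, 0.89 to 1.77) and 215 and 200.1 CPM in the rest (0.11, -0.12 to 0.34).

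The knockout T cell class held only 18 cells, and the T cell label was weak in it: the receptor gene Trac had 330.1 CPM in knockout and 1066 CPM in WT, and ILC3 marker genes outside the gates summed to 3184 CPM in knockout and 838 CPM in WT. There 2 of 10 members were higher and 1 lower, beside 6.7% and 2.37% of 8089 genes. Nfkbia had 1938 CPM in knockout and 1117 CPM in WT (0.79, 0.57 to 1.01), with 28.6% of the knockout UMIs in 1 cell, and Tnfaip3 1352 CPM in knockout and 721 CPM in WT (0.91, 0.64 to 1.16). Cd83 had 0 UMIs in knockout and 790 UMIs in WT, or 4.32-fold lower with the knockout class set to a floor of 3 counts. By the exact interval it was at least 3.51-fold lower. Given the number of cells and the markers, these values describe 18 cells and not knockout T cells in general.

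Other genes of the pathway were read from 4 lists of 46 genes. In NCR+ ILC3 6 of 38 measured genes were higher and 4 lower, in CCR6+ ILC3 10 of 36 and 2, in ILC2 7 of 44 and 5, in ILC1/NK cells 5 of 34 and 0, in T cells 1 of 43 and 3, and in myeloid cells 14 of 46 and 4. Of all genes tested, the shares higher and lower were 13.7% and 3.61% in NCR+ ILC3, 15.8% and 4.35% in CCR6+ ILC3, 14% and 3.15% in ILC2, and 15.1% and 3.84% in ILC1/NK cells. They were 6.7% and 2.37% in T cells, and 17.2% and 4.64% in myeloid cells. The higher counts in NCR+ ILC3, ILC2 and ILC1/NK cells were near these shares. Their medians were 0.18 in NCR+ ILC3, 0.30 in CCR6+ ILC3, 0.14 in ILC2 and 0.15 in ILC1/NK cells, against 0.14, 0.17, 0.15 and 0.16 for all genes. Of the list of further targets, 0 were higher and 3 of 6 lower in NCR+ ILC3, 1 was higher and 2 of 5 lower in CCR6+ ILC3, and 0 were higher and 4 of 6 lower in ILC2. Gadd45b, an NF-κB-induced stress gene, had 1017 CPM in knockout and 2300.2 CPM in WT NCR+ ILC3 (-1.18, -1.27 to -1.09), and stood at -0.87 in ILC2 and -0.65 in CCR6+ ILC3. The survival gene Bcl2a1d stood at -2.54 in ILC2, with reads that near-identical copies of the Bcl2a1 family may share. Tnf stood at -0.86 in NCR+ ILC3 and -1.01 in ILC2 but at 0.72 (0.19 to 1.25) in CCR6+ ILC3.

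Of the kinases and adaptors upstream of NF-κB, 3 of 22 were higher and 1 lower in NCR+ ILC3, 7 of 21 and 0 in CCR6+ ILC3, and 5 of 27 and 1 in ILC2, so that the NCR+ count was at the background of 13.7%. Irak3, whose product IRAK-M dampens signalling from Toll-like and IL-1 receptors, had 179.6 CPM in knockout and 40.9 CPM in WT NCR+ ILC3 (2.14, 1.72 to 2.57). It stood at 2.03 (1.14 to 2.99) in CCR6+ ILC3, 0.89 in ILC1/NK cells and 0.45 in ILC2, the last under 1.5-fold. The subunit gene Rel had 142 CPM in knockout and 61.2 CPM in WT CCR6+ ILC3 (1.21, 0.78 to 1.65) and stood at 0.59 in NCR+ ILC3, and the kinase gene Ripk1 stood at 1.11 in CCR6+ ILC3. N4bp1, whose product restrains NF-κB signalling, stood at 1.37 in ILC1/NK cells and 0.72 in NCR+ ILC3. Rela, encoding the main activating subunit p65, was within counting error in the ILC classes, with 56.5 CPM in knockout and 75.5 CPM in WT NCR+ ILC3 (-0.42, -0.85 to 0.01).

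Across the 12 sums of 6 classes and 2 libraries, the genes whose log2(CPM + 10) was most like that of Nfkbia were AL590144.2 (Pearson r 0.95), Dpm3, Gadd45b, Cetn2 and Aes, among 6830 genes with at least 500 UMIs. Those most like Tnfaip3 were Impdh1 (0.98), Klhl6, Stxbp5, Nlrc3 and Btg3. The lists shared no gene. Sums of 1 library share its depth and preparation, and the 18-cell class enters as 1 of the 12 sums, so these values are a description.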

How the data were processed

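Single-cell RNA was measured in 1 Zfp36_KO and 1 WT library (10x 3′ v2 chemistry, per the labels). The deposited values are raw UMI counts per gene and barcode, made with Cell Ranger 3.1.0 on mm10 per the file headers and the submitters' processing notes; the annotation release is not given in the sources used here. Barcodes with under 500 genes or over 10% mitochondrial UMIs, and doublets called by Scrublet in scanpy 1.11.5 per library, were removed. Scrublet marked only 5 knockout and 37 WT barcodes (0.15% and 1.09%), so most doublets may remain. A cell also had to meet exactly 1 gate, but 0 kept cells of either library met more than 1, so this rule removed no doublets.

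The gates needed at least 1 UMI of each defining marker (ILC2: Gata3 with Il17rb, Il1rl1, Klrg1, Ptgdr2 or Pparg; ILC3: lineage genes, with Ccr6 or Ncr1; ILC1/NK: 2 natural killer genes; T: Trac and Cd3 genes; myeloid: at least 4 UMIs of a macrophage and dendritic cell list) and lacked those of the others. A deeper cell passes more easily. UMIs were summed per class and library; no test was made, as each genotype is 1 library. Ratios have exact 95% intervals from the binomial split of UMIs, levels exact Poisson and shares Clopper-Pearson intervals, covering counting error only, and the computation was tested on simulated data. A gene at 0 UMIs was set to a floor of 3 counts. Shares used cells thinned to 2000 UMIs (seed 0), leaving out shallower cells: 10 knockout and 7 WT ILC2, 7 and 1 CCR6+ ILC3, 2 and 1 NCR+ ILC3, and 10 and 3 ILC1/NK cells.

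All 10 members are reported in all 6 classes; up to 4 further pathway genes per class were named by the size of their ratio among those counted as higher or lower, and Rela, Tnf in CCR6+ ILC3 and others below that rank were named after their values were seen. The members, lists and gates were chosen with earlier results of these data known. Of the features, 30934 matched GENCODE M21 by identifier. Items withheld from this text are not reported here. Alternatives were another minimum of UMIs, centring, equal weight per cell, thinning, stricter and looser gates, all barcodes, and leaving out cells with Y-linked UMIs or the richest 5% of cells.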

Additional observations from a re-analysis of the deposited data

Results flagged for a closer look

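Nfkbia went in opposite directions in different classes of the same comparison. Its log2 ratio of knockout over WT was -0.74 in CCR6+ ILC3 and -0.86 in NCR+ ILC3, but 0.79 in T cells, each by at least 1.5-fold and with an interval that excluded 0. The difference between the classes was not tested. The knockout T cell class held 18 cells, of which 1 held 28.6% of the Nfkbia UMIs.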

How the results depend on the processing

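No paired analysis was possible because each genotype is 1 library. In ILC2 and NCR+ ILC3, and for the lower members of CCR6+ ILC3, the counts of higher and lower members stayed within 1.5 times of the reported ones under all alternatives run. The others moved. Higher members in CCR6+ ILC3 (1 reported) were 2 with at least 20 UMIs and 0 when centred on the median of all genes or with the strict gate. In ILC1/NK cells the higher members (1 reported) were 0 when centred or with all barcodes and 2 without cells with Y-linked UMIs, and the lower members (0 reported) were 1 when centred and 1 without cells with Y-linked UMIs. In T cells the higher members (2 reported) were 1 when centred and 0 with the strict gate, and the lower ones (1 reported) 2 when centred or with equal weight per cell and 0 with the strict gate. In myeloid cells the higher members (1 reported) were 0 when thinned and 2 in C1q-positive cells. The lower ones (2 reported) were 5 when centred, thinned or without cells of high depth, 4 with equal weight per cell or without cells with Y-linked UMIs, and 1 in C1q-positive cells. Nfkbia in T cells turned to -0.50 with the strict gate, and Relb in myeloid cells to 0.33 in C1q-positive cells; the causes were not tested. Over all alternatives the ratio ranged from -1.01 to -0.78 for Nfkbia, -1.41 to -0.84 for Nfkbid, -1.96 to -1.47 for Icam1 and -4.90 to -2.48 for Cd83 in NCR+ ILC3, and from -1.499 to -0.57 for Icam1 in CCR6+ ILC3, the lowest values of Icam1 in CCR6+ and of Cd83 in NCR+ ILC3 being those of the strict gate. Cd83 at 0 or few UMIs was limited by depth outside CCR6+ ILC3 and myeloid cells.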

Other observations

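Some pairs of members were also found in the same cells, though not in every class and library. Among knockout NCR+ ILC3 at 2000 UMIs per cell, the 28 cells with an Icam1 UMI had a mean of 4.39 Nfkbia UMIs (SD 4.50 over cells), against 2.46 (SD 2.59) in the 237 without. Among WT NCR+ ILC3 the 65 cells with an Icam1 UMI had 7.20 (SD 5.21), against 4.19 (SD 4.16) in the 198 without. Knockout NCR+ ILC3 with an Icam1 UMI therefore had about as many Nfkbia UMIs as WT cells without it. In NCR+ ILC3, cells with an Nfkbid UMI had more Tnfaip3 too, with means of 2.25 and 1.25 UMIs in knockout NCR+ ILC3 with and without it, and 2.14 and 1.09 in WT. In CCR6+ ILC3 the Tnfaip3 means were 0.83 with and 0.81 without an Nfkbid UMI in knockout, and 1.31 and 0.70 in WT. For Nfkb1 in NCR+ ILC3 the values were 0.53 and 0.57 in knockout and 0.61 and 0.45 in WT. In ILC2, Nfkbid-positive cells had means of 5.35 Nfkbia UMIs in knockout (113 cells) and 7.22 in WT (93 cells), against 2.25 and 2.49 in Nfkbid-negative cells. In knockout CCR6+ ILC3, cells with a Cd83 UMI had 2.04 Nfkbia UMIs and those without 2.41, and in WT the values were 4.64 and 3.48. An Icam1 UMI was in 6.9% of knockout CCR6+ ILC3 with and 13.7% of those without an Nfkbid UMI. In WT these shares were 25.4% and 17.6%. In ILC1/NK cells they were 26.3% and 34.3% in knockout, and 51.1% and 19.8% in WT. In NCR+ ILC3 and ILC2 of both libraries the share was larger in cells with an Nfkbid UMI. The SD over cells is a spread of cells and not the error of a mean. Cells of 1 library are not replicates, so no test was made.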
